A study of Bos taurus with 12 samples.

Results

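The collagens other than type IV were studied in the endometrium, the lining of the uterus, of old and young cows. Members were taken by name, as the genes of the array whose symbol is COL, a number, A and a number, with COL4A1 to COL4A6 left out. This gave 37 genes, read by 49 of the 26342 transcripts and 110 of the 61399 probes of the array. The biopsies were of endometrium between the caruncles, taken on Day 15 of a synchronized estrous cycle. The 4 old females (OF) were 13 to 14 years old and nulliparous, and the 4 young females (YF) were 4 to 5 years old and primiparous. All 8 were Holstein clones of 1 cell donor and so shared their nuclear genome, which makes them a model of 1 genotype, and age and parity went together. The contemporary cows (CP) were 4, of which animal 1111 was left out because its label states that the authors excluded it for a phenotype unlike that of its group. The age, parity and genetic background of the CP are not given in the sources used here.

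Each animal had 1 array, labelled with Cy-3, and the replicate is the animal. The 75th percentile of the processed intensity lay between 968 and 1597 on the 12 arrays, and the share of probes that stood well above background was 71.6% to 74.9%. No probe was saturated, and the number of arrays limits the precision of every value. A level is given as the log2 intensity minus the 75th percentile of its array, so that 0 is the 75th percentile, and levels of different genes are not compared because their probes differ. Slide 1 carried OF 0245, YF 1070, YF 1072 and CP 1111, and slide 2 carried the other 3 OF, 2 YF and 3 CP.

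Collagens are built of 3 chains wound into a triple helix, and in each chain a glycine recurs in the pattern Gly-X-Y because only glycine has room in the centre of the helix. Fibrillar collagens form the load-bearing fibrils of the stroma, and fibril-associated collagens with interrupted triple helices (FACIT) sit on the surface of those fibrils and link them to other matrix. Type VI collagen forms beaded filaments around cells, type VII the anchoring fibrils under epithelium, and the transmembrane collagens span the cell membrane. In the uterus these proteins carry the stroma, the vessel walls and the muscle coat, and they are laid down and removed over the estrous cycle and pregnancy.

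The repeat can be read in the probes themselves. Of the 110 member probes, which hold 87 different sequences, 7 probes with 3 sequences lie wholly within a Gly-X-Y stretch. These 3 are shown because the feature that defines the family is visible in them: each is 60 bases long and has 6 glycine codons, in capitals, that follow each other every 9 bases. They belong to COL13A1, a transmembrane collagen, whose gene lies on chromosome 28 from 26253844 to 26406118, to COL20A1, a FACIT, on chromosome 13 from 54734579 to 54756417, and to COL25A1, a transmembrane collagen of neurons, on chromosome 6 from 17542435 to 17669711, all in coordinates of UMD3.1 taken from the array files.
COL13A1: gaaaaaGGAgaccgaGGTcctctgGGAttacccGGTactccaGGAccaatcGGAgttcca
COL20A1: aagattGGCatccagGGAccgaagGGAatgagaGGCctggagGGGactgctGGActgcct
COL25A1: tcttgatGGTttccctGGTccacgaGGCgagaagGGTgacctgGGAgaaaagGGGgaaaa
The sequences of COL20A1 and COL25A1 are each shared by 3 probes, so transcripts of these genes are not read independently. The COL13A1 probe was well above background on all 12 arrays, with a level from −5.64 in YF 1127 to −1.43 in OF 2258. The COL25A1 probe was also well above background on all 12, with a level from −5.67 in YF 1072 to −4.57 in OF 2258, whereas the COL20A1 probe was well above background on only 2.

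Of the 37 genes, 25 had a probe well above background on all 12 arrays. COL6A6, a chain of type VI collagen, COL9A1, a chain of the cartilage FACIT type IX, and COL21A1, a FACIT of vessel walls, were well above background on none. The other 9 were well above background on some arrays: COL8A2 and COL28A1 on 11 each, COL22A1 on 10, COL17A1 on 6, COL9A2 on 5, COL8A1 on 4, COL6A5 on 3, and COL10A1 and COL19A1 on 1 each. A gene was tested in a comparison when all arrays of at least 1 of its 2 groups had a probe well above background, which left 28 members in OF against YF, 27 in CP against YF and 28 in CP against OF. For a member that passes only through the group where it is high, the filter favours a difference in level without forcing one. Counts and medians over tested members, and the p-values of such a member, are therefore descriptions. COL22A1 passed only through OF in OF against YF and in CP against OF. In these 2 comparisons COL28A1 passed only through YF and only through CP, in this order. In 8 genes there were several transcripts, and the transcript with the highest mean level stood for the gene.

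**Figure D1:**
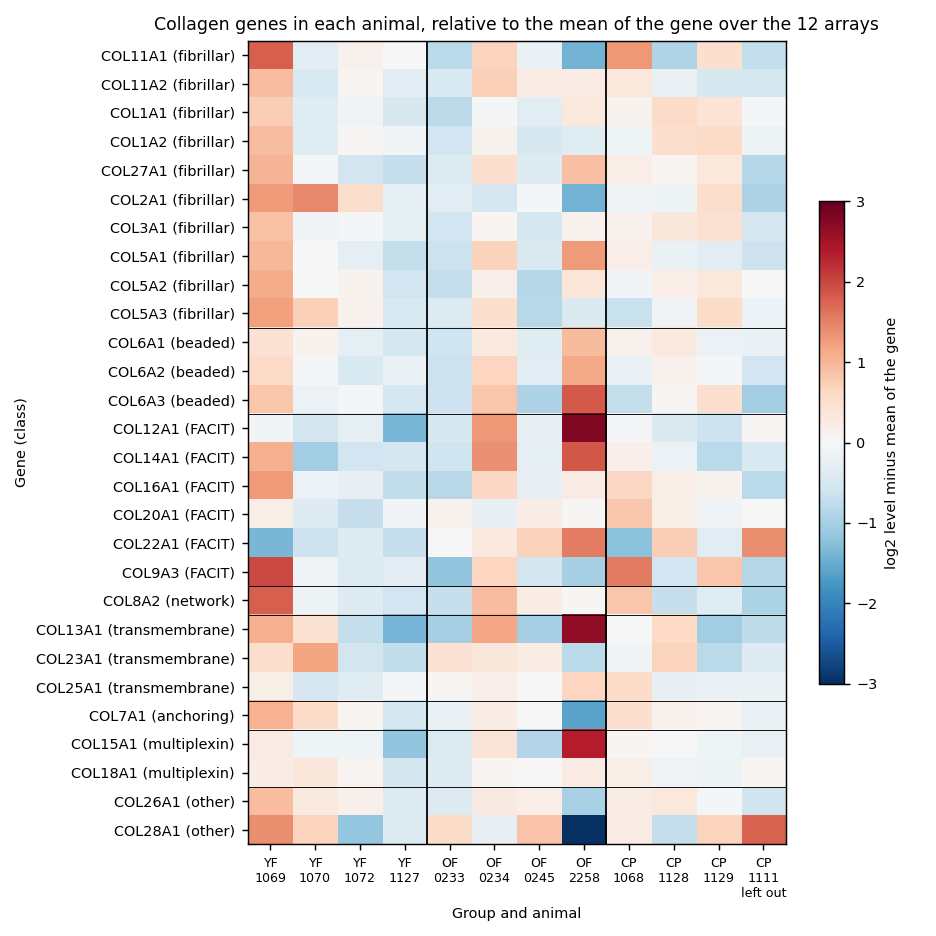
Log2 level of each collagen gene tested in any comparison (lines, with class) in each of the 12 animals (columns), minus the mean of the gene over the 12 arrays. Red is above and blue below that mean, the colour scale ends at 3 either way, black lines separate classes and groups, and CP 1111 took no part in the comparisons. YF 1069 and OF 2258 hold most of the deep red cells.

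The biopsies carried the cells that make an endometrium, and 2 OF also carried much smooth muscle RNA. All 12 epithelial markers, all 13 stromal fibroblast markers and all 10 endothelial markers were well above background on all 12 arrays, with the probes of CLDN3, SPARC and EMCN giving the largest share of the summed signal of their lists over the 12 arrays, which is no ranking of the genes. Of 16 smooth muscle markers 15 were matched to the array, with ACTA2 giving the largest share of the signal summed over the arrays, and all 15 were well above background on every array. Their summed level, in units of the 75th percentile, was 1103 in OF 2258 and 393 in OF 0234, and between 38.4 and 82.7 in the other 10 animals. The summed epithelial level was 17.0 in OF 2258, 31.0 in YF 1069 and 63.6 in OF 0234, and between 72.2 and 131 in the other 9. The summed stromal fibroblast level was 130 in YF 1069 and 119 in OF 2258, and was lowest, at 62.3, in OF 0245. In such pieces of tissue, fewer cells of a type and less RNA per cell cannot be told apart. Of 11 leukocyte markers 10 were well above background on all arrays and ITGAM on none, and CSF1R gave the largest share of the signal summed over the arrays. In OF against YF the median difference was 1.75 over the 15 smooth muscle markers, all higher in OF, −0.27 over the stromal fibroblast, −0.28 over the epithelial, 0.16 over the endothelial and 0.01 over the leukocyte markers tested. Limma called 0 of these markers at an adjusted p of 0.05. At an unadjusted p of 0.05 it called 1 smooth muscle and 1 endothelial marker, beside 2.42% of all transcripts.

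Comparing OF with YF asks how collagen transcripts differ with age and parity, which went together, in animals of 1 genome. At an adjusted p of 0.05 limma called 0 of 28 members, as it called 0% of the 19755 transcripts tested. COL2A1, the fibrillar collagen of cartilage, had a lower level in OF, and COL22A1, a FACIT of tissue junctions such as that of muscle and tendon, a higher level. These were the 2 members of 28 at an unadjusted p of 0.05, where 2.42% of all transcripts stood. COL12A1, a FACIT of tendon, muscle and dense stroma, was the other gene whose means were 1 or more apart on the log2 scale, so that 3 of 28 members reached that difference, beside 2.76% of all transcripts. All 4 OF lay on 1 side of all 4 YF for 1 member, COL22A1, beside 1.53% of all transcripts. By the fold change rank ordering statistics (FCROS), which was applied to all 37 genes, 4 were over-expressed in OF, beside 2.88% of 26323 transcripts, and 5 were under-expressed, beside 2.06%. The over-expressed were COL12A1, COL14A1 and COL22A1, with ratios of OF to YF means of 3.86, 1.95 and 2.79, and COL19A1, for which no ratio is given because it was well above background in no YF and in only 1 OF. The under-expressed were COL2A1, COL9A3, COL11A1, COL5A3 and COL7A1, with ratios of 0.380, 0.496, 0.539, 0.593 and 0.641. Of the 9, COL2A1 and COL22A1 were called in every FCROS setting and the other 7 were not. None of these 9 had an adjusted p under 0.999 in limma where it was tested, and COL19A1 was not tested there.

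Over the 28 tested members, 13 had a higher and 15 a lower mean in OF, or 12 and 16 with dim probes left out, which turns COL20A1, and their median log2 difference was −0.04, against 0.01 for all transcripts tested. The classes did not share a direction: the median was −0.38 over 10 fibrillar genes, 0.22 over 3 type VI chains, 0.56 over 6 FACIT genes (0.50 with dim probes left out) and 0.40 over 3 transmembrane genes. The FACIT median includes COL22A1, which entered only through OF, where it is high, and is given as a description. The median of the members was 0.020 with the slide as a block and 0.039 without a filter, and its sign is not given as a result. With array weights the median of the members was 0.34 and that of the fibrillar genes 0.01, and on slide 1 alone the type VI median was −0.27 and the transmembrane median −0.36. Leaving an animal out changes which genes pass the filter, so medians without 1 animal at a time are over the genes tested with all 8. That of the members ran from −0.26 to 0.32, that of the fibrillar genes from −0.50 to −0.093 and that of the transmembrane genes from 0.19 to 0.52, in each case from without YF 1127 to without YF 1069. That of the FACIT genes ran from 0.35 without OF 2258 to 0.80 without YF 1069, and that of the type VI chains from −0.15 without OF 2258 to 0.51 without OF 0233. Without OF 0234 or OF 2258, the 2 with high smooth muscle markers, the members' median was −0.11 or −0.13. Without both, the median of the members was −0.41, that of the type VI chains −0.46 and that of the FACIT genes 0.02, and FCROS called 2 members over-expressed, beside 2.46% of 26323 transcripts, and 5 under-expressed, beside 2.39%. The part of smooth muscle in the result was not tested.

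**Figure D2:**
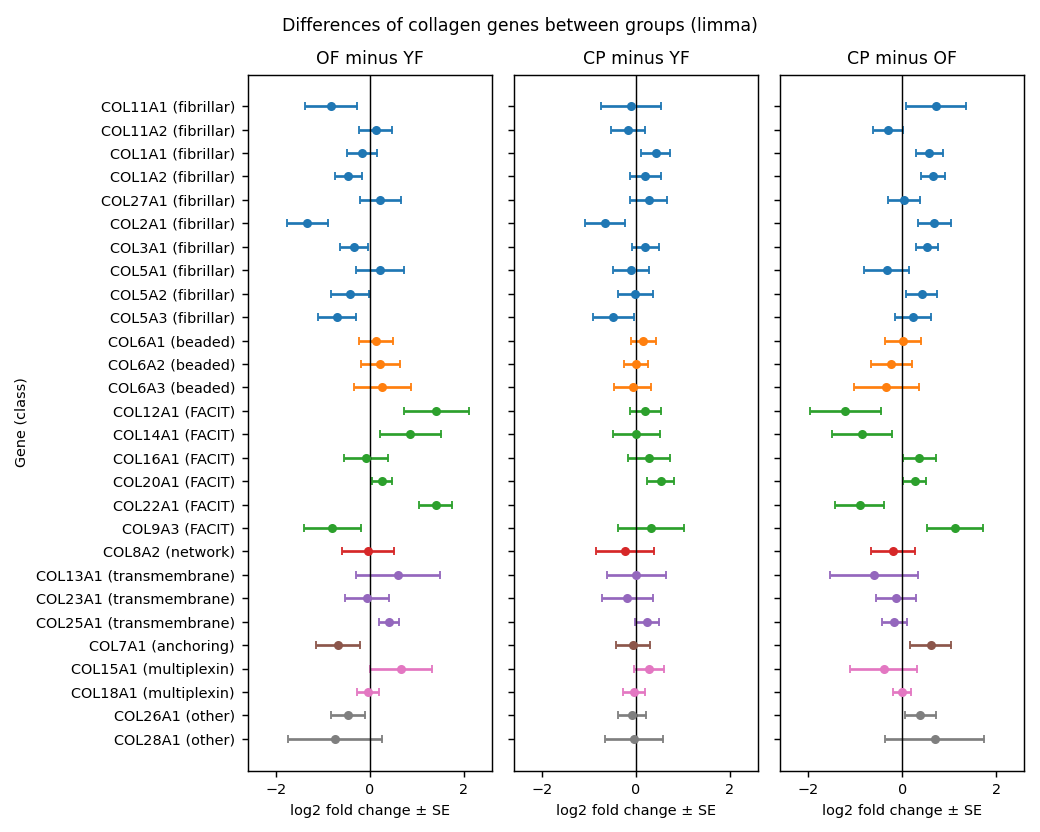
Log2 fold change of each collagen gene with its standard error (bars) from limma, in OF minus YF, CP minus YF and CP minus OF. Genes are lines, coloured by class, and the vertical line marks 0. In OF minus YF the points of COL12A1 and COL22A1 lie beyond 1 and that of COL2A1 beyond −1, and no gene passed the adjusted threshold in any panel.

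Among the fibrillar collagens, 7 of 10 had a lower mean in OF, and COL2A1 stood out. COL2A1 was at −1.48 in YF 1069, −1.32 in 1070, −2.24 in 1072 and −3.05 in 1127. In OF it was at −3.11 in 0233, −3.28 in 0234, −2.82 in 0245 and −4.19 in 2258. All OF but 0245 lay below all YF, and OF 0245 lay within the YF, between 1072 and 1127. The log2 fold change was −1.33 (SE 0.43), with a limma p of 0.0146 and a Benjamini-Hochberg adjusted p of 0.999, and an exact permutation test over animals gave a two-sided p of 0.0571, where 0.0286 is the smallest that 4 against 4 allows. With the slide as a block the difference was −1.18, on slide 2 alone −1.26 and on slide 1, with 1 OF and 2 YF, −1.04. All 6 probes of the gene, which hold 2 different sequences, gave a lower mean in OF, from −1.43 to −1.19, and without OF 0234 and OF 2258 the difference was −0.94. Of 7 cartilage markers matched, none was well above background on all 12 arrays, CNMD was so on 11, COMP on 10, HAPLN1 on 5 and ACAN, MATN1, MATN3 and SOX9 on 1 each. CNMD, the only one tested in OF against YF, had a higher level in OF, unlike COL2A1. All OF lay above all YF, where 1.53% of all transcripts were apart either way. The means differed by 0.92 (limma p 0.00167, adjusted p 0.999), and 2.42% of all transcripts stood at an unadjusted p of 0.05. The summed level was 0.577 in CP 1129 and between 0.0425 and 0.0791 on the other 11 arrays. In CP 1129 CNMD was at −0.99 and on the other arrays between −8.03 and −5.37, so its lower levels are near the floor of the measurement.

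Type I and type III collagen, the main fibrils of most connective tissue, overlapped between the groups. COL1A1, which codes for the chain of which type I collagen holds a pair, was at 5.40, 4.31, 4.56 and 4.19 in YF 1069, 1070, 1072 and 1127, and at 3.88, 4.60, 4.36 and 4.97 in OF 0233, 0234, 0245 and 2258. COL1A2, the partner chain, was at 6.05, 4.76, 5.16 and 5.05 in the YF and at 4.55, 5.24, 4.64 and 4.77 in the OF, in the same order. COL3A1, the chain of the fine fibrils of soft tissue and vessels, was at 7.43, 6.47, 6.48 and 6.26 in the YF and at 5.97, 6.62, 6.03 and 6.68 in the OF. In all 3 genes YF 1069 was the highest of the 8 and OF 0233 the lowest, and the groups overlapped. The log2 fold changes were −0.16 (SE 0.32) for COL1A1, −0.46 (SE 0.29) for COL1A2 and −0.34 (SE 0.29) for COL3A1, all with a limma adjusted p of 0.999 and exact p of 0.686, 0.229 and 0.343. With array weights, which count uneven arrays less, those of COL1A1 and COL1A2 were 0.022 and 0.0011. Without YF 1069 the values were 0.10, −0.19 and −0.08, and without OF 0233 that of COL1A1 was 0.03. With the slide as a block they were −0.23, −0.56 and −0.43.

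The minor fibrillar chains start fibrils and set their width. COL5A1, a chain of type V collagen, was at −0.48, −1.47, −1.74 and −2.21 in the YF and at −2.13, −0.79, −1.91 and −0.20 in the OF. OF 2258 lay above all YF and OF 0234 above all but YF 1069, and the log2 fold change was 0.22 (SE 0.51, exact p 0.800), −0.30 on slide 1 and −0.54 without both OF. It was −0.13 without OF 2258 alone and −0.02 without YF 1127. COL11A1, a chain of type XI collagen that joins type II fibrils, was at −1.86, −3.98, −3.50 and −3.65 in the YF and at −4.44, −2.97, −3.85 and −5.05 in the OF. Its log2 fold change was −0.83 (SE 0.56), and YF 1069 was the highest and OF 2258 the lowest of the 8 animals. It was −0.37 without YF 1069 and −0.51 without OF 2258, and FCROS did not call the gene without either of these or without OF 0233. The other fibrillar genes differed by −0.70 for COL5A3, −0.42 for COL5A2, 0.13 for COL11A2 and 0.22 for COL27A1, with SE between 0.35 and 0.44. Without YF 1069 that of COL5A3 was −0.43 and that of COL5A2 −0.11, and COL11A2 and COL27A1 were −0.044 without OF 0234 and −0.024 without OF 2258.

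Of the 6 FACIT genes tested 4 had a higher mean in OF, 3 with dim probes left out, and COL22A1 was the only member whose groups did not overlap. COL22A1 was at −7.97, −7.21, −6.98 and −7.27 in YF 1069, 1070, 1072 and 1127, and at −6.60, −6.30, −5.89 and −5.04 in OF 0233, 0234, 0245 and 2258. It was well above background on all 4 OF arrays and on 3 of the 4 YF arrays, so the level of the YF is near the floor of the measurement. It entered the test only through OF, the group where it is high, and its p-values and its lack of overlap are given as descriptions. The log2 fold change was 1.40 (SE 0.36), with a limma p of 0.00392 and an adjusted p of 0.999, and the exact p was 0.0286, the smallest possible. Without the filter the limma p was 0.00394 and the adjusted p 0.993. A slide block gave 1.48, slide 2 alone 1.64 and slide 1 alone 1.21, and the value was 1.11 without OF 0234 and OF 2258. The brighter of its 2 probes gave 2.11, the dimmer 0.69, and without YF 1069 the brighter gave 1.40. The dimmer was well above background on 2 of the 12 arrays and gave −0.18 without OF 2258, so the direction rests on the brighter probe. After normexp, which lifts dim signals, the difference was 0.42. Both probes of its other transcript, ENSBTAT00000065866, were not well above background on any array.

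COL12A1 and COL14A1, which bind the surface of type I fibrils, were high in the 2 OF with much smooth muscle RNA. COL12A1 was at −4.14, −4.61, −4.35 and −5.44 in the YF and at −4.54, −2.76, −4.32 and −1.27 in OF 0233, 0234, 0245 and 2258. COL14A1 was at −4.28, −6.40, −5.92 and −5.87 in the YF and at −5.94, −3.97, −5.63 and −3.48 in the OF. In both genes OF 0234 and OF 2258 lay above all YF, while OF 0233 and OF 0245 lay within the range of the YF. The log2 fold change of COL12A1 was 1.41 (SE 0.70, limma p 0.0751, exact p 0.171), and it was 0.76 without OF 2258 and 0.21 without both animals. With the slide as a block it was 1.30, on slide 2 1.93, and on slide 1, which held neither animal, 0.16. That of COL14A1 was 0.86 (SE 0.65, exact p 0.229), with 0.58 under the slide block, 0.61 on slide 2, 0.53 on slide 1 and −0.17 without both animals. It was 0.44 without OF 2258 alone and 1.31 without YF 1069. FCROS called neither gene without both animals.

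COL9A3, a chain of the FACIT that coats type II fibrils, ran the other way. It was at 0.36, −1.74, −2.04 and −1.95 in YF 1069, 1070, 1072 and 1127, and at −2.82, −0.98, −2.17 and −2.62 in the OF. YF 1069 stood far above the other YF, 3 OF lay below all YF, and OF 0234 lay above 3 of the 4 YF. The log2 fold change was −0.80 (SE 0.61, exact p 0.314), −0.96 with the slide as a block, −1.34 on slide 2, −0.28 on slide 1 and 0.36 with array weights. Without YF 1069 it was −0.24. COL16A1, a FACIT of many connective tissues, and COL20A1 differed by −0.09 and 0.26. That of COL16A1 was 0.33 without YF 1069, and the 0.26 of COL20A1 comes from its dim probe, which gave 0.73 and was well above background on 2 arrays. The other 2 probes with that sequence gave −0.33 and −0.21 and were well above background on no array. The bright probe of COL20A1, which stands in all 3 transcripts, gave −0.20, −0.18 and −0.18. The other 2 transcripts gave −0.26 and −0.20, so no direction is given for the gene.

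**Figure D3:**
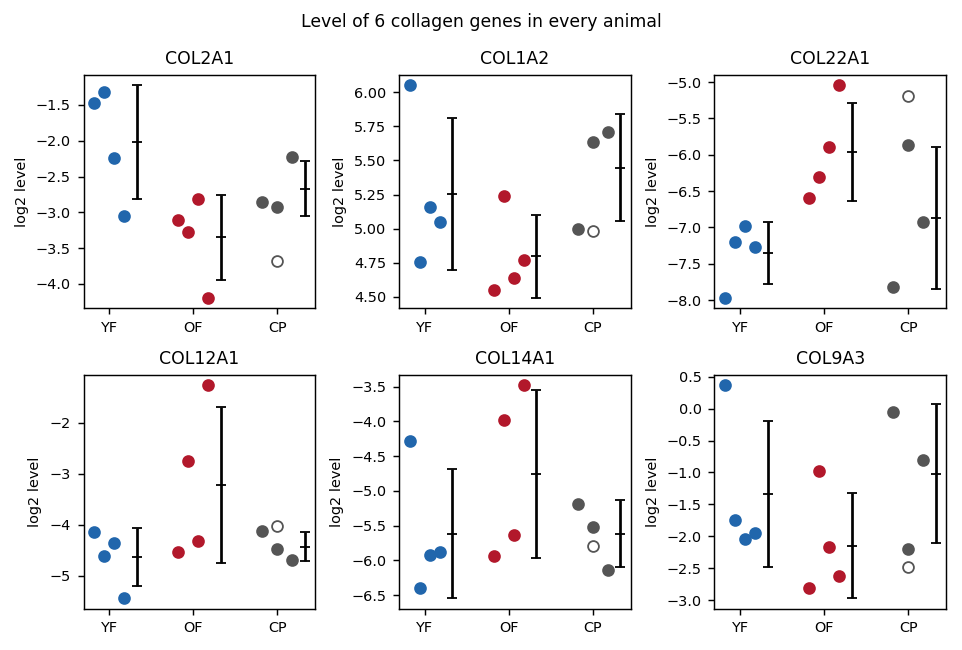
Log2 level of 6 collagen genes in every animal, with YF in blue, OF in red and CP in grey. Points are animals, the bar beside each group is its mean and SD (n = 4, 4 and 3), and the open circle is CP 1111, which is not in the mean. COL22A1 is higher in all OF than in any YF, and in COL12A1 and COL14A1 OF 0234 and OF 2258 stand apart from OF 0233 and OF 0245.

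The type VI chains form beaded filaments between cells and fibrils, and OF 2258 was the highest of the 8 for each chain tested. OF 0234 was about level with YF 1069, whose summed smooth muscle level was 45.2. In this order they were at 4.93 and 5.07 for COL6A1, 2.40 and 2.34 for COL6A2, and 1.89 and 1.88 for COL6A3. COL6A1 was at 5.07, 4.73, 4.34 and 4.10 in the YF and at 4.03, 4.93, 4.26 and 5.58 in the OF. COL6A3, the longest of the chains, was at 1.88, 0.88, 1.01 and 0.53 in the YF and at 0.43, 1.89, 0.14 and 2.90 in the OF. In both genes OF 2258 was the highest and OF 0233 or OF 0245 the lowest of the 8, so the spread within OF covered that of YF. The log2 fold changes were 0.14 (SE 0.36) for COL6A1, 0.22 (SE 0.41) for COL6A2 and 0.27 (SE 0.61) for COL6A3, with exact p of 0.771, 0.686 and 0.714. Without OF 0234 and OF 2258 they were −0.42 for COL6A1 and −0.79 for COL6A3. On slide 1 they were −0.27 and −0.80. Without OF 2258 alone they were −0.15 and −0.25, that of COL6A2 was −0.087, and without YF 1127 that of COL6A1 was −0.01. COL6A5, a chain found in few tissues, was at −3.26 in OF 2258 and between −8.17 and −7.60 in the other OF, and it was not tested.

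COL15A1 and COL18A1 code for the multiplexins of basement membrane zones, and both give fragments that restrain vessel growth. COL15A1 was at 0.72, 0.36, 0.36 and −0.69 in the YF and at 0.07, 0.88, −0.40 and 2.85 in the OF, so that OF 2258 stood high above all others. The log2 fold change was 0.66 (SE 0.67, exact p 0.486), 0.54 with the slide as a block, −0.0020 without OF 2258, −0.35 without OF 0234 as well, and −0.75 on slide 1. COL18A1 was at −1.16, −1.07, −1.32 and −1.95 in the YF and at −1.78, −1.33, −1.41 and −1.14 in the OF, with a log2 fold change of −0.04 (SE 0.23, exact p 0.857), which ran from −0.23 without YF 1127 to 0.08 without OF 0233. Of its 2 probe sequences 1 was not well above background on any array and the other lay between 4.98 and 6.28 on all of them. The bright probes alone gave −0.057 and −0.051 in OF against YF, 0.094 and 0.075 in CP against YF and 0.15 and 0.13 in CP against OF, so that in the comparisons with CP the dim probes set the sign of the mean.

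**Figure D4:**
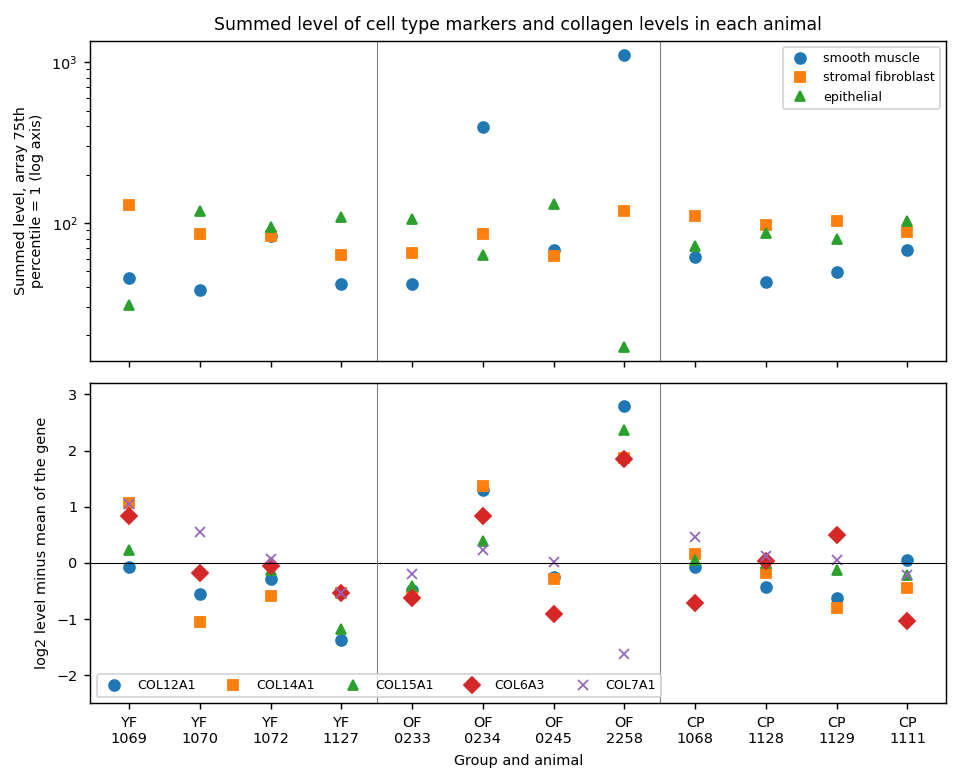
Upper panel: summed level of smooth muscle, stromal fibroblast and epithelial markers in each of the 12 animals, in units of the array's 75th percentile, on a log axis. Lower panel: log2 level of 5 collagen genes minus the mean of each gene over the 12 arrays. OF 2258 and OF 0234 are highest for smooth muscle markers, COL12A1 and COL15A1, and OF 2258 is lowest for COL7A1.

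COL7A1, the collagen of anchoring fibrils that fasten epithelium to the stroma, was at 5.59, 5.09, 4.61 and 4.00 in the YF and at 4.34, 4.76, 4.56 and 2.93 in the OF. OF 2258, which had the lowest summed epithelial level, was the lowest of all 12 animals and the other OF lay within the YF. YF 1069, with the next lowest summed epithelial level, 31.0, was the highest of the 12. YF 1127, with a summed epithelial level of 109, was the lowest of the YF. The log2 fold change was −0.68 (SE 0.47), −0.27 without OF 2258 and −0.42 without YF 1069, and the part of the epithelial share in it was not tested. COL17A1, the transmembrane collagen of hemidesmosomes in stratified epithelium, was near background, between −7.52 in OF 0234 and −5.74 in OF 0233, was well above background on 3 YF and 1 OF, and was not tested. COL13A1, which clusters at cell adhesions, was at −0.98, −1.59, −2.77 and −3.45 in the YF and at −3.04, −0.89, −3.04 and 0.61 in the OF. OF 2258 and OF 0234 were again above all YF, and the log2 fold change was 0.61 (SE 0.90), which turned to −0.13 without OF 2258. COL25A1 and COL23A1, the other transmembrane genes tested, differed by 0.40 (SE 0.21) and −0.06 (SE 0.47). COL23A1 turned to 0.22 without OF 2258 and 0.30 without YF 1070, and COL25A1 was 0.26 without OF 2258 and −0.28 in its transcript ENSBTAT00000064060. In that transcript the bright probe gave 0.40, and the dim one, well above background on 1 array, gave −0.96. The COL25A1 transcript ENSBTAT00000022980 gave 0.38. COL8A2, a chain of the network in vessel walls and under endothelium, differed by −0.04 (SE 0.55), 0.50 without YF 1069 and −0.31 without OF 0234. COL26A1 and COL28A1, which fit no class, differed by −0.46 and −0.74, and COL28A1 was at −8.25 in OF 2258 and between −4.88 and −3.77 in the other OF. Without OF 2258 the difference of COL28A1 turned to 0.27 and that of COL26A1 was −0.21.

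Some animals often held the highest or lowest level of a member. Among the 28 members, YF 1069 had the highest level of the 8 clones for 14, where it was the highest for 18.2% of all transcripts. OF 2258 was the highest for 10 and the lowest for 6, against 26.7% and 24.6% of all transcripts. OF 0233 was the lowest for 9 and YF 1127 for 6, against 8.59% and 20.8%. The counts of YF 1069 and OF 0233 were well above these shares, and those of OF 2258 and YF 1127 were nearer to them. For the fibrillar genes, the median level relative to the mean of each gene was 1.01 in YF 1069, between −0.40 and 0.05 in the other YF, and −0.57, 0.31, −0.40 and 0.19 in OF 0233, 0234, 0245 and 2258. YF 1069, the highest of the 8 in the fibrillar genes, also had the highest summed stromal fibroblast level and, among the YF, the lowest summed epithelial level, and the part of these shares in the result was not tested.

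Comparing CP with YF shows how cows of undescribed background relate to the young clones. Limma called 0 of 27 members at an adjusted p of 0.05 and 0 at an unadjusted p of 0.05, where it called 0% and 3.03% of the 19993 transcripts tested. The groups were apart for 0 members, beside 3.83% of all transcripts, and no member differed by 1 or more, beside 1.74%. FCROS was run for OF against YF alone. The widest differences were −0.65 (SE 0.43) for COL2A1 and 0.53 (SE 0.29) for COL20A1, and 13 of the 27 members were higher in CP. For COL20A1 the dim probe gave 0.91 and the other 2 probes with its sequence −0.41 and −0.27. The bright probes gave 0.15, 0.12 and 0.12, and the other 2 transcripts −0.15 and −0.074. The median was −0.01 over the members and −0.02 over all transcripts tested, and the former was 0.01 after quantile normalization and 0.04 after centring on the array median. Over the same 27 members it ran from −0.22 without YF 1127 to 0.35 without YF 1069. This comparison shares the 4 YF with the one of OF against YF.

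The values are given for CP 1068, 1128 and 1129 in this order. COL1A1 was at 4.76, 5.25 and 5.08, COL1A2 at 5.0, 5.64 and 5.71 and COL3A1 at 6.67, 6.89 and 7.01, all within the range of the YF. Their log2 differences were 0.42 (SE 0.31), 0.19 (SE 0.33) and 0.19 (SE 0.29), with exact p of 0.286, 0.686 and 0.686, where 3 against 4 allows none under 0.0571. On slide 2 alone, and with the slide as a block, they were 0.23, −0.10 and 0.01. Without YF 1069 they were 0.68, 0.46 and 0.45. COL2A1 was at −2.86, −2.92 and −2.23 in the CP, all within the range of the YF, with an exact p of 0.400 and −0.41 with the slide as a block and −0.99 without YF 1127.

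In the other classes no member passed the test either. COL12A1 was at −4.13, −4.49 and −4.69 and COL14A1 at −5.18, −5.51 and −6.14, with log2 differences of 0.20 (SE 0.32) and 0.0039 (SE 0.50). Without YF 1127 that of COL12A1 was −0.07. That of COL14A1 ran from −0.26 to 0.45 without 1 animal at a time, with 0.45 without YF 1069. It was negative with the slide as a block and on slide 2. COL9A3 was at −0.06, −2.20 and −0.80, with 0.32 (SE 0.70), −0.23 with the slide as a block and −0.16 without CP 1068. COL6A1 was at 4.77, 4.92 and 4.46 and COL6A3 at 0.34, 1.10 and 1.56, with 0.16 (SE 0.26) and −0.07 (SE 0.39), the latter 0.26 without CP 1068. COL5A1 was at −1.27, −1.69 and −1.80, with −0.11 (SE 0.39), and without YF 1069 it differed by 0.22. COL15A1 was at 0.53, 0.48 and 0.36, and COL18A1 was at −1.22, −1.50 and −1.54, with 0.27 (SE 0.32), −0.02 without YF 1127, and −0.04 (SE 0.24), 0.06 without YF 1070. COL22A1 was at −7.82, −5.86 and −6.93, was well above background on 2 of the 3 arrays, and was not tested. All 5 FACIT genes tested had a higher mean in CP, with a median of 0.28, and 4 of 10 fibrillar genes had one, with a median of −0.06. The size of the difference of COL20A1 rests on its dim probe, and that of COL14A1 was 0.0039. With the brightest probe 4 of the 5 FACIT genes were higher, and with CP 1111 their median was −0.0037. With the slide as a block COL14A1 and COL9A3 were lower in CP. Over the same genes the FACIT and fibrillar medians were 0.018 and −0.25 without YF 1127, and 0.68 and 0.33 without YF 1069. All 10 endothelial markers had a higher mean in CP, with a median of 0.43, as had all 10 leukocyte markers tested, with 0.19, and 10 of 13 stromal fibroblast markers, with 0.20, and limma called 0 of them at an adjusted or an unadjusted p of 0.05. Their part in the result was not tested.

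Comparing CP with OF sets cows of undescribed background beside the old clones. The main fibrillar collagens had higher means in CP, with no call. At an adjusted p of 0.05 limma called 0 of 28 members, as it called 0% of the 19914 transcripts, and the smallest Benjamini-Hochberg adjusted p of a member was 0.912. At an unadjusted p of 0.05 it called 1 member, COL1A2, beside 4.57% of all transcripts. The groups were apart for 0 members, beside 5.79%, and 2, COL12A1 and COL9A3, differed by 1 or more, beside 4.48%. In CP, 15 of the 28 members were higher, with a median of 0.03 against −0.04 over all transcripts, and of −0.15 with array weights. Of 10 fibrillar genes 8 were higher, with a median of 0.47, which was 0.03 with array weights. This comparison shares the OF and the CP with those above.

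For COL1A2, CP 1128 and CP 1129 lay above all OF and CP 1068 lay within them. The log2 difference was 0.65 (SE 0.25), with a limma p of 0.0353 and an adjusted p of 0.912, and the exact p was 0.114. It was 0.60 on slide 2 and with the slide as a block, where the limma p was 0.0781 and 0.0777, and with all 3 groups in 1 fit the p was 0.0619. In these 3 settings 0 members were at an unadjusted p of 0.05, beside 5.47%, 5.32% and 5.42% of all transcripts. Without CP 1128 or CP 1129 the limma p of COL1A2 was 0.113 or 0.118. For COL1A1 and COL3A1 the same 2 CP lay above all OF, and the genes differed by 0.58 (SE 0.28) and 0.53 (SE 0.24), with exact p of 0.114 for each. With the slide as a block they differed by 0.55 and 0.43. COL2A1 differed by 0.68 (SE 0.35, exact p 0.171), by 0.85 with the slide as a block and by 0.40 without OF 2258. Its second transcript, ENSBTAT00000017505, which shares probe sequences with the first, had all 3 CP above all 4 OF, with 0.80 (SE 0.31) and an exact p of 0.0571, the smallest possible. In the first transcript, which stands for the gene, the groups overlapped, and they were apart for 5.79% of all transcripts. Stromal fibroblast markers differed the same way: 12 of 13 were higher in CP than in OF, with a median of 0.44. In limma 0 were past an adjusted p of 0.05 and 2 were at an unadjusted p of 0.05, beside 4.57% of all transcripts. All 15 smooth muscle markers were lower in CP, with a median of −1.88, and 9 of 10 endothelial and 9 of 10 leukocyte markers were higher, with 0.27 and 0.12. The part of these markers in the result was not tested.

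COL9A3 had the largest positive difference, 1.12 (SE 0.60, exact p 0.171), with CP 1068 and CP 1129 above all OF, and −0.27 with array weights. It was 0.64 without CP 1068 and 1.71 without CP 1128. COL12A1 was lower in CP by a log2 difference of −1.21 (SE 0.76, exact p 0.343), and COL14A1 by −0.86 (SE 0.63, exact p 0.400). Without OF 0234 and OF 2258 these were −0.0047 and 0.17, and without OF 2258 alone −0.56 and −0.43. COL22A1 differed by −0.91 (SE 0.53, exact p 0.286), −0.89 with the slide as a block, −0.62 without both OF and −0.07 with array weights. It was −0.43 without CP 1068 and −1.41 without CP 1128. COL22A1 entered this test only through OF, where it is high, so its difference and p-value are descriptions. Its brighter probe gave −1.40, and its dimmer probe, well above background on 2 of the 12 arrays, gave −0.42. For the type VI chains, COL6A1 differed by 0.02 (SE 0.38) and COL6A3 by −0.34 (SE 0.69), which without both OF were 0.57 and 0.71 and without OF 2258 alone 0.31 and 0.18. COL15A1 differed by −0.40 (SE 0.71) and by 0.62 without both OF, COL5A1 by −0.33 (SE 0.48) and by 0.43, and COL18A1 by −0.0045 (SE 0.20) and by 0.17. Without OF 2258 alone these 3 differed by 0.27, 0.02 and 0.09. COL7A1 was higher in CP, at 5.01, 4.67 and 4.59 against 2.93 to 4.76 in the OF, with 0.61 (SE 0.44, exact p 0.229), and 0.20 without OF 2258. Without both OF, limma gave 8 of 28 members at an unadjusted p of 0.05, beside 7.13% of all transcripts, and 0 at an adjusted one, and the median of the members was 0.44.

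The genes that process collagen can be set beside the collagens. Of 29 genes for hydroxylation, folding, secretion, trimming and crosslinking, 27 were matched to the array, and 22 were tested. In OF against YF 12 were higher and 10 lower, with a median of 0.03. In limma 0 were past an adjusted p of 0.05 and 2 were at an unadjusted p of 0.05, beside 2.42% of all transcripts. P4HA3, a subunit of the prolyl hydroxylase that stabilizes the helix, was at 1.32, 0.99, 0.79 and 0.38 in the YF and at −0.08, 0.30, 0.15 and −0.89 in the OF, so that all OF lay below all YF, and it differed by −0.999. The groups were apart either way in 1.53% of all transcripts. PCOLCE2, an enhancer of the removal of the carboxyl propeptide, was at 2.10, 0.93, 0.56 and 0.19 in the YF and at −0.50, 0.68, −0.35 and −0.65 in the OF, and differed by −1.15. Without YF 1069 that of PCOLCE2 was −0.77. In CP against OF the same pair differed by 1.07 and 1.41, and in CP against YF by 0.07 and 0.26. SERPINH1, the chaperone of procollagen, was at 4.05 in OF 2258 and between 1.67 and 3.11 in the other 11 animals.

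Of 10 collagen receptors 9 were matched, and of 7 tested in OF against YF 5 were higher, with a median of 0.09. ITGA1, the integrin chain that binds type I and type IV collagen on muscle and stroma, differed by 0.73, and DDR2, a kinase receptor for fibrillar collagen, by 0.11. Without OF 2258 these were 0.39 and −0.21. Of 8 genes for collagen breakdown, MMP8 was well above background on none. In OF against YF 2 of 6 were higher and 4 lower, with a median of −0.19. Limma called 0 in either list at an adjusted p of 0.05 and 0 at an unadjusted p of 0.05 in OF against YF. The summed level of the breakdown genes was 27.3 in YF 1069 and between 9.21 and 14.9 in the other 11 animals.

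Type IV collagen, the network of basement membranes, had 6 genes on 6 transcripts and 14 probes, and all 6 were tested. Its COL4A3 was lower in all 4 OF than in any YF, with a log2 difference of −1.92, and its COL4A5 differed by 1.14, but without OF 2258 these were −0.87 and 0.35.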

How the data were processed

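RNA of endometrial biopsies from 12 cows was hybridized by the authors to a custom bovine Agilent array, 1 array per animal on 2 slides, and read with Agilent Feature Extraction 10.7.3.1. The deposited files hold the intensity of each spot, of which the processed intensity is the background-corrected signal that the authors' software wrote. On each array 61549 spots of 61399 probes were not controls, 1319 control spots were left out, and 66 probes with an outlier mark in the software, none of them of a member, were left out, which kept 61333 probes and 26323 transcripts. The 75th percentile of intensity was between 968 and 1597, and the share of probes well above background, between 71.6% and 74.9%, stands for depth.

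Values were the log2 intensity minus the 75th percentile of the array, averaged over spots, then probes, then for a transcript. A transcript was tested where all arrays of at least 1 of the 2 groups had a probe well above background. Each pair of groups was fitted in limma (version 3.58.1, under R 4.3.3 with the package data.table, version 1.17.8), moderated t with Benjamini-Hochberg adjustment over all transcripts tested and a threshold of 0.05. Exact two-sided permutation tests over animals, with a smallest possible p of 0.0286 for 4 against 4 and 0.0571 for 3 against 4, are given beside limma. FCROS was coded from its description, over 16 pairs of arrays with a share of 0.25 trimmed, f-values of 0.025 or less or 0.975 or more and a ratio of at least 1.5, on all transcripts without a filter. Summaries used Python 3.11.15, pandas 2.3.3 and numpy 2.4.6. The code was tested on simulated data.

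Genes were named by a rule: members whose groups did not overlap, members whose means differed by 1 or more on the log2 scale, and 11 main collagens of connective tissue, vessels and epithelial junctions, 14 genes in all. Every other gene named was chosen after its values were seen. The members and the lists of marker and collagen pathway genes were chosen with earlier results of these data known. CP 1111 was left out of the comparisons and included as an alternative. The other alternatives were quantile normalization, centring on the array median, normexp with an offset of 50 and quantile normalization, the brightest probe, no filter, the slide as a block, each slide alone, all 3 groups in 1 fit, array weights, each animal left out in turn, and for FCROS no trimming, dim transcripts left out and a ratio of 1. Leaving dim probes out before averaging, and leaving out OF 0234 and OF 2258 together, were chosen after seeing the data. Of the listed genes, 105 were matched by symbol, 3 by description and 4 by RefSeq accession, and 4 were not matched, which does not show that the array lacks them: P3H3 stands there under the older symbol LEPREL2.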

Additional observations from a re-analysis of the deposited data

Results flagged for a closer look

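In groups of 4 animals, the gap between the highest or lowest animal and its nearest neighbour was set against the range of the group, and 8 of the 106 groups looked at had a gap above Dixon's 95% limit. Chance gives about 1 in 20 groups. Within YF, animal 1069 stood above the others for COL9A3, at 0.36 where the others lay from −2.04 to −1.74, for the FACIT class value, at 0.63 against −0.61 to −0.41, and for the summed level of collagen degradation genes, at 27.3 against 12.7 to 14.3. Also within YF, animal 1127 stood above the others for COL10A1, at −7.03 against −8.65 to −8.38, and below them for the summed level of collagen receptors, at 15.8 against 17.4 to 17.6. YF 1072 stood above the others for the summed level of smooth muscle markers, at 82.7 against 38.4 to 45.2. Within OF, animal 2258 stood above the others for COL6A5, at −3.26 against −8.17 to −7.60, and below them for COL23A1, at −4.81 against −3.78 to −3.58. In CP 1111, which is in no comparison, 2 of the 14 genes named by the rule were well above background and above all YF: COL12A1 at −4.02, with YF up to −4.14, and COL22A1 at −5.19, with YF up to −6.98. Among the other members COL28A1 was also above all YF there, at −2.85.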

How the results depend on the processing

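Limma called 0 members at an adjusted p of 0.05 in each comparison under each alternative run. At an unadjusted p of 0.05 the count of members ran, without 1 animal at a time, from 2 to 4 in OF against YF, 0 to 4 in CP against YF and 0 to 3 in CP against OF, beside 1.95% to 4.84%, 2.43% to 4.87% and 3.31% to 8.50% of all transcripts. With array weights it was 5, 2 and 6, beside 11.01%, 6.56% and 16.3%. COL2A1 and COL22A1 kept their direction in OF against YF under every alternative run, COL2A1 from −1.67 to −1.05 and COL22A1 from 1.09 to 1.61 without 1 animal at a time, and FCROS called both in every setting. Of the values of named genes, 396 had the direction first reported and 48 the opposite one under the alternatives that kept or grouped animals, and 243 and 36 without 1 animal at a time. The opposite ones follow, as log2 differences, with class and member medians that changed sign or shifted; the cause was not tested.

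In OF against YF, the members' median, −0.041 as first reported, was 0.0204 with the slide as a block, 0.039 without a filter and 0.34 with array weights. COL18A1 was 0.0154 with the slide as a block and 0.14 on slide 2. On slide 1 the type VI median was −0.27, the transmembrane median −0.36, COL15A1 −0.75, COL5A1 −0.30, COL6A1 −0.27 and COL6A3 −0.80. With array weights the fibrillar median was 0.0114, COL1A1 0.0218, COL1A2 0.00107 and COL9A3 0.36. Without OF 0234 and OF 2258 the type VI median was −0.46, COL14A1 −0.17, COL15A1 −0.35, COL5A1 −0.54, COL6A1 −0.42 and COL6A3 −0.79. Without 1 animal at a time the ranges were COL15A1 −0.0020 to 1.08, COL18A1 −0.23 to 0.0833, COL1A1 −0.33 to 0.10, COL5A1 −0.13 to 0.55, COL6A1 −0.15 to 0.36, COL6A3 −0.25 to 0.67, and, over the genes tested with all animals here and below, the members' median −0.26 to 0.32 and the type VI median −0.15 to 0.51.

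In CP against YF, the members' median, −0.0060 as first reported, was 0.0101 with quantile normalization, 0.0377 with median centring, 0.0154 with normexp, 0.0653 with the brightest probe, 0.0039 with dim probes left out and 0.12 with array weights. With the brightest probe and array weights the fibrillar median was 0.0506 and 0.0266 and the type VI median 0.11 and 0.22, the latter also 0.0377 with median centring and 0.0019 with normexp. With CP 1111 the FACIT median was −0.0037 and the transmembrane median −0.15. COL18A1 was 0.0101 with quantile normalization, 0.00153 with median centring, 0.0451 with normexp, 0.0936 with the brightest probe, 0.0844 with dim probes left out, and 0.14 with the slide as a block and on slide 2. COL14A1 was −0.0221 with normexp, −0.0338 with the brightest probe, −0.54 with the slide as a block and on slide 2, and −0.0404 with CP 1111. COL1A2 was −0.10 and COL9A3 −0.23 with the slide as a block and on slide 2, COL6A3 was 0.12 with array weights, and with CP 1111 COL9A3 was −0.0455 and COL3A1 −0.0123. Without 1 animal at a time the ranges were COL12A1 −0.0667 to 0.37, COL14A1 −0.26 to 0.45, COL15A1 −0.0244 to 0.45, COL18A1 −0.23 to 0.0607, COL5A1 −0.36 to 0.22, COL6A3 −0.35 to 0.26, COL9A3 −0.16 to 0.91, and of the medians members −0.22 to 0.35, fibrillar −0.25 to 0.33, type VI −0.096 to 0.20, FACIT 0.018 to 0.68 and transmembrane −0.41 to 0.35. Over the genes that pass without YF 1127, with COL9A2 added, the FACIT median was −0.025.

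In CP against OF, the members' median, 0.0307 as first reported, was −0.0045 without a filter, −0.0348 with the slide as a block and on slide 2, −0.15 with array weights and −0.0197 with CP 1111. COL18A1 was 0.17 with quantile normalization, 0.0239 with median centring, 0.16 with normexp, 0.15 with the brightest probe, 0.14 with dim probes left out, 0.17 without both OF and 0.0132 with CP 1111. COL6A1 was −0.13 with the slide as a block and on slide 2 and −0.0525 with CP 1111, and with array weights COL9A3 was −0.27. The fibrillar median kept its sign but was 0.0306 with array weights, and the members' median kept its sign but was 0.44 without both OF. Without both OF the type VI median was 0.57, the FACIT median 0.15, the transmembrane median 0.0118, COL14A1 0.17, COL15A1 0.62, COL5A1 0.43 and COL6A3 0.71. Without 1 animal at a time the ranges were COL15A1 −0.81 to 0.27, COL18A1 −0.13 to 0.0858, COL5A1 −0.63 to 0.0206, COL6A1 −0.20 to 0.31, COL6A3 −0.74 to 0.18, the members' median −0.063 to 0.18 and the type VI median −0.51 to 0.18.

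FCROS called 9 members, beside 4.94% of all transcripts, and 5 without trimming, 2 of them under-expressed, beside 3.99% and 1.64%. Without both OF it called 2 over-expressed, beside 2.46%. Without 1 animal at a time it called 4 to 11 in all, 2 to 5 over-expressed and 1 to 8 under-expressed, beside 4.52% to 5.91%, 2.48% to 3.01% and 1.77% to 3.12%. Over all transcripts limma called 0 in OF against YF in each setting. In CP against YF it called 1 with quantile normalization, 2 with all 3 groups in 1 fit, 1 with array weights, 4 with CP 1111 and 0 to 1 without 1 animal at a time. In CP against OF it called 26 with array weights, 2 with CP 1111 and 0 to 1 without 1 animal at a time. Signal over background limits COL22A1, COL17A1 and the genes well above background on few arrays. Members that were not tested with all animals, such as COL17A1, have values only without a filter or where they pass it. Without YF 1127 COL17A1 passed, and with it the transmembrane median in OF against YF was 0.00072, against 0.19 over the genes tested with all animals. On slide 1, with 1 OF and 2 YF, values have no test, and slide 1 holds no CP that was compared.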
